A study of Mus musculus with 10 samples.

Results

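The SWI/SNF, ISWI and CHD chromatin remodelers were followed here in mouse germinal vesicle oocytes, as 10 genes: Smarca4, Smarca2, Smarcb1, Smarcc1, Smarcd1, Smarce1 and Arid1a of SWI/SNF, Smarca5 of ISWI, and Chd1 and Chd3 of the CHD group. They were chosen by symbol, taking every probe set that the platform annotation assigns to 1 gene symbol only, which gave 27 of the 45101 probe sets on the array. The study set 5 arrays of CTCF-depleted oocytes against 5 arrays of wild-type oocytes, all at the germinal vesicle stage, where the fully grown oocyte waits in meiotic prophase. CTCF, a DNA-binding protein with zinc fingers, anchors chromosome loops, and the comparison asks which transcripts depend on it. The labels give neither how CTCF was removed nor the strain, animal age, oocyte number or whether the arrays of a group had different donors, so the spread behind every p-value may be technical. The free-text description of all 10 samples names depleted oocytes; titles and source names set the groups.

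Remodelers are motor proteins that use ATP to slide, evict or restructure nucleosomes, and so open or close DNA to other factors. SWI/SNF complexes carry Smarca4 or Smarca2 as their motor and mostly open chromatin, ISWI complexes carry Smarca5 or Smarca1 and space nucleosomes evenly, and CHD proteins read modified histone tails. The mouse oocyte stores proteins and RNA for the embryo, and maternal Smarca4 is needed for the embryo to switch on its own genes. Smarca5 is known from mouse stem cells as a motor that CTCF needs to occupy many of its sites.

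The values are MAS5 signals, 1 number per probe set and array on a linear scale, and they compare the same probe set between arrays but not different probe sets with each other. Ctcf itself checked the labels: its brighter probe set had 36.3 ± 33.7 in depleted and 1001 ± 76.0 in wild-type oocytes (SD, n = 5 each), and depleted replicate 5 kept the most, 95.8, against at most 29.3 on the other depleted arrays. The background level of an array was its highest Bacillus control probe set, a bacterial sequence that mouse RNA lacks, a choice made after seeing the data; it ran from 4.75 to 10.9, and 49.4% to 62.9% of probe sets exceeded it. All 12 oocyte markers were above it on every array, and 0 of them were called. Summed signals of 11 granulosa and cumulus markers were 896 to 1265 in depleted and 918 to 2428 in wild-type oocytes, the highest being wild-type replicate 2 and the next wild-type array 1059. Of those markers, 2 were called, Fshr and Nr5a2, both higher in depleted oocytes, where 16.4% of all genes were called. Amh was uncalled at a log2 fold change of 0.17. The rest were uncalled and below 0: Gja1 (-0.72), Kitl (-0.45), Inha (-0.43), Hsd17b1 (-0.37), Amhr2 (-0.15), Foxl2 (-0.10), Fst (-0.077) and Inhba (-0.018). Summed theca and stroma markers ran from 167 to 200.1 in depleted and 167 to 199 in wild-type oocytes, with Col1a1 above background on no array. Summed blood, immune and endothelial markers ran from 92.1 to 125 in depleted and from 92.2 to 102 in wild-type oocytes, with Ptprc above background on no array. The part of granulosa RNA in the results was not tested. Without wild-type replicate 2, 0 remodeler probe sets of the 10 genes were called, but with all arrays the count was also 0, so it cannot show such a part.

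On single probe sets, none of the 10 remodeler genes was called changed in CTCF-depleted oocytes. Smarca2 passed only on an average of its probe sets, described below. Of the 27 probe sets, 23 passed the filter on dim signals and were tested, with at least 1 for each gene, and 0 were higher and 0 lower at a Benjamini-Hochberg adjusted p under 0.05 in limma, a linear model fitted to all 27022 tested probe sets at once. Over all tested probe sets 12.6% were called, 5.48% higher and 7.12% lower. At an unadjusted p under 0.05 there were 4 member probe sets, 2 higher and 2 lower, against 25.4% of all tested probe sets. An exact permutation test gave 1 under 0.05, its smallest p being 0.0238 where this design allows 0.00794. The share by that test over all probe sets was not computed. Without an intensity trend limma called 0, against 9.68% of all tested probe sets. In no single member probe set did the groups separate, and over all tested probe sets 11.1% did. In bulk samples, fewer cells with a transcript and less of it per cell cannot be told apart.

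**Figure D1:**
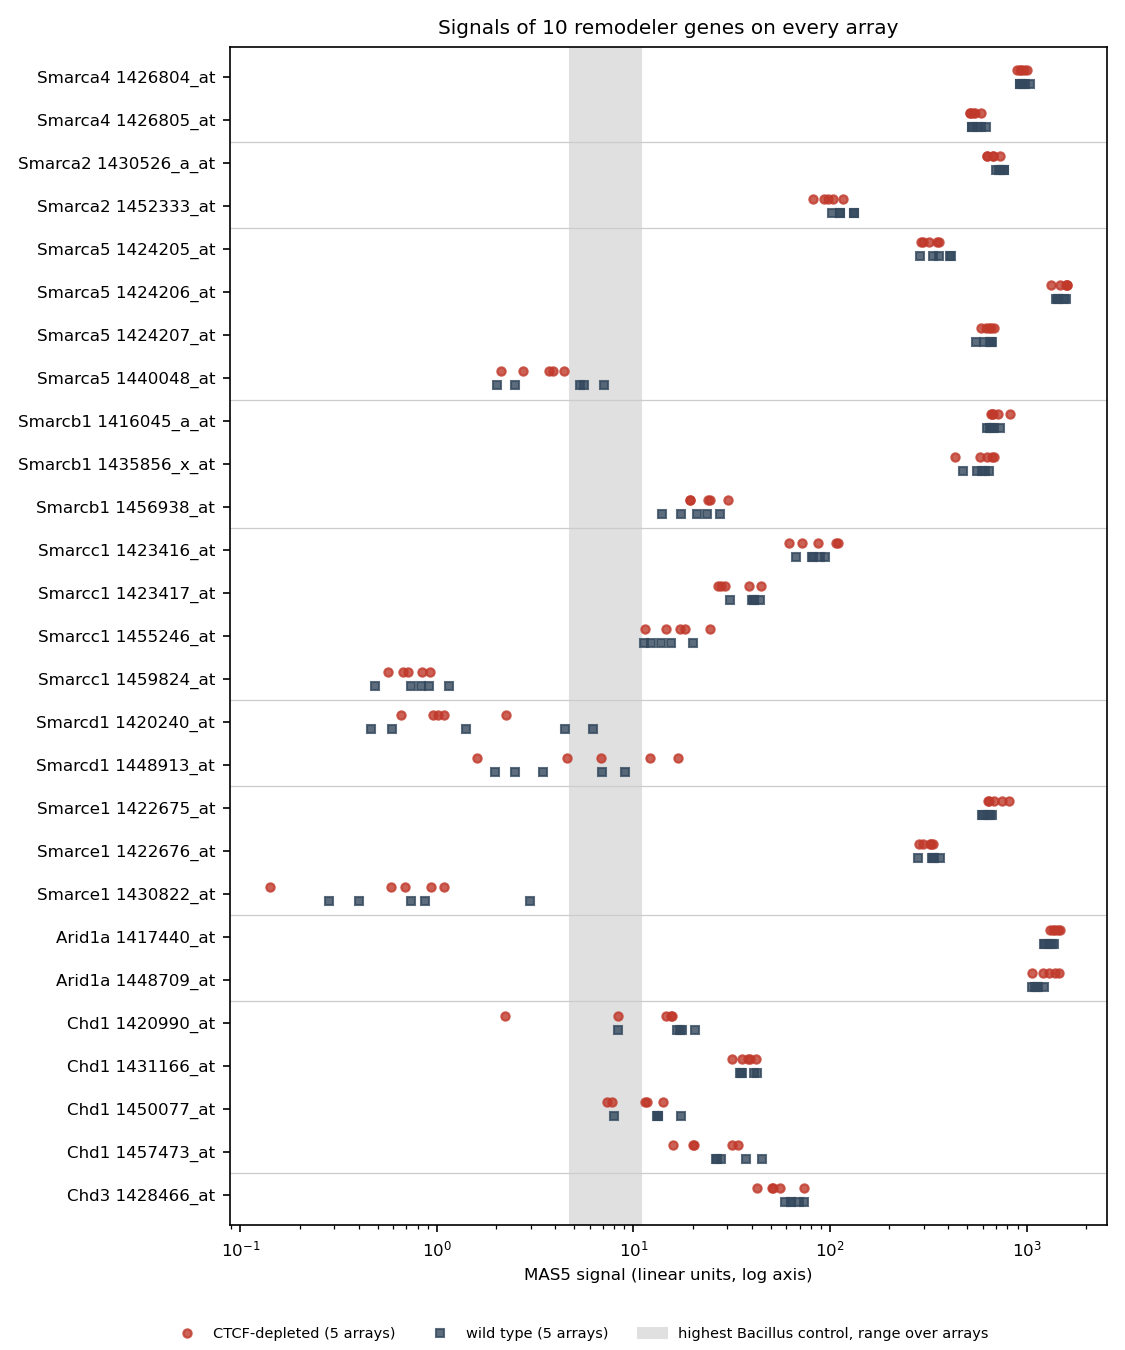
MAS5 signal (log axis) of all 27 probe sets of the 10 genes, with each of the 5 CTCF-depleted arrays as a circle above the 5 wild-type arrays as squares; the grey band is the range over arrays of the highest Bacillus control. In every row the groups overlap, and 20 probe sets lie above the control level on all 10 arrays, 3 on none and 4 on some.

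The motor subunits of SWI/SNF, Smarca4 and Smarca2, were both well above background on all arrays. Smarca4, also called BRG1, read 939, 1000.5, 970.4, 899 and 924 in CTCF-depleted replicates 1 to 5, against 987, 929, 922, 1038 and 961 in wild-type replicates 1 to 5 on probe set 1426804_at. The groups overlapped along nearly their whole range: the means were 946 ± 39.8 in depleted and 967 ± 47.1 in wild-type oocytes (SD, n = 5 each). The log2 fold change, depleted over wild type, was -0.031 ± 0.052 (SE), with a 95% interval of -0.14 to 0.079 (limma, adjusted p = 0.771). As folds, that interval runs from 0.907 to 1.06. The other Smarca4 probe set, 1426805_at, had 539.8 ± 29.9 in depleted and 565 ± 40.5 in wild-type oocytes, a log2 fold change of -0.063 ± 0.063 (adjusted p = 0.592).

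Smarca2, or BRM, the alternative motor, came closest of the SWI/SNF motors to a fall. Probe set 1430526_a_at read 734, 627, 632, 677 and 677 in CTCF-depleted replicates 1 to 5, against 695, 722, 745, 771 and 766 in wild-type replicates 1 to 5. Depleted replicate 1 lay inside the wild-type range, and the other 4 depleted arrays lay under the lowest wild-type array. The log2 fold change was -0.15 ± 0.058 (SE; limma, adjusted p = 0.117). The dimmer probe set, 1452333_at, read 82.1, 116, 93.2, 97.6 and 104 in CTCF-depleted replicates 1 to 5, against 132, 112, 102, 112 and 132 in wild-type replicates 1 to 5, and depleted replicates 2 and 5 reached into the wild-type range while the other 3 lay under it. Its log2 fold change was -0.26 ± 0.11 (adjusted p = 0.141), so neither probe set passed on its own.

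Averaging the 2 Smarca2 probe sets on the log2 scale, a choice made after the data were seen, gave a log2 fold change of -0.20 ± 0.059 (SE), which passed (limma over 13811 genes, adjusted p = 0.0298, where 16.2% of genes were called, 9.08% called lower). On this average the groups did not overlap, as for 13.3% of all genes: the depleted arrays lay between 7.95 and 8.09 and the wild-type arrays between 8.13 and 8.33, as mean log2 signals. An exact permutation test on the average therefore gave the smallest p that this design allows, 0.00794. The limma call was lost when arrays were centred on their medians (-0.11, adjusted p = 0.420). With single arrays left out its adjusted p was 0.0229 to 0.0835, and the call was lost without depleted replicate 1, 3 or 4 or without wild-type replicate 1, 4 or 5. No other of the 10 genes passed on the average of its probe sets in this fit. The Arid1a average, 0.14 (adjusted p = 0.0984), passed with median centring (0.23, adjusted p = 0.0429), array weights (0.17, adjusted p = 0.0372), the 3-prime to 5-prime covariate (0.19, adjusted p = 0.0460) and without depleted replicate 2 (0.19, adjusted p = 0.0161). It stayed uncalled in the other settings run on averages.

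Since either motor can drive a SWI/SNF complex, the log2 ratio of Smarca2 to Smarca4 was taken within each array on the brightest probe sets. It was -0.35, -0.67, -0.62, -0.41 and -0.45 in CTCF-depleted replicates 1 to 5, against -0.50, -0.36, -0.31, -0.43 and -0.33 in wild-type replicates 1 to 5. The groups overlapped, with 2 depleted arrays below all wild-type arrays. The mean differed by -0.11, or a ratio of 0.924 of that in wild type, which a two-sided exact permutation test did not separate from the spread between arrays (p = 0.167, smallest possible 0.00794, n = 5 each).

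Start regions of the alternative motors, from RefSeq on GRCm38.p6, are printed to show the kind of promoter these genes have. Each window of 300 bases spans the annotated left end of its gene (21616106 for Smarca4 and 26605073 for Smarca2) and is written 5′ to 3′ on the gene's strand, with CG dinucleotides in capitals.
Smarca4, chr9:21615919-21616218, plus strand: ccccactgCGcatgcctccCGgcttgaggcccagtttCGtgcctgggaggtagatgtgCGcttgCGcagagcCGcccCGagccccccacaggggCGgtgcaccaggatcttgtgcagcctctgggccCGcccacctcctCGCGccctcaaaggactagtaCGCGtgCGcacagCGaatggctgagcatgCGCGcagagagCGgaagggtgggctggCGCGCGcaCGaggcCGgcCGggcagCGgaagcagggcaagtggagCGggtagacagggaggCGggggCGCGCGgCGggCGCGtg
Smarca2, chr19:26604910-26605209, plus strand: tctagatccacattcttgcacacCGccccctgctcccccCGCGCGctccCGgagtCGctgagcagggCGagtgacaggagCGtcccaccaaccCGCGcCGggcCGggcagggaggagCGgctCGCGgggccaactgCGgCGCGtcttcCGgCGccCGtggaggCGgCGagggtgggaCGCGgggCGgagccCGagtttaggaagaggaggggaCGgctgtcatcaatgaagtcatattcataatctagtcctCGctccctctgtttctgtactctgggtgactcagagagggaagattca
They hold 33 and 29 CG dinucleotides. Windows were found for 7 of the 10 genes, 8 in all, and hold 22 to 36, against a median of 7 over all 32851 windows.

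No core subunit of SWI/SNF was called, and intervals were narrow on bright probe sets and wide on dim ones. Smarcb1, or SNF5, a core subunit that contacts the nucleosome, read 674, 824, 657, 668 and 717 in CTCF-depleted replicates 1 to 5, against 737, 653, 629, 679.9 and 658 in wild-type replicates 1 to 5 on probe set 1416045_a_at. Depleted replicate 2 was the highest array and the others were mixed, with a log2 fold change of 0.073 ± 0.068 (SE; limma, adjusted p = 0.556). Probe set 1435856_x_at, whose suffix marks probes that may also bind other transcripts, spread from 430.2 to 682 in depleted and 474 to 642 in wild-type oocytes, and its log2 fold change was 0.037 ± 0.11 (adjusted p = 0.88). The third, 1456938_at, was dim at 19.4 to 30.4 in depleted and 14.0 to 27.7 in wild-type oocytes, with 0.18 ± 0.19 (adjusted p = 0.623).

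Smarce1, or BAF57, the subunit with an HMG box that binds DNA, read 646, 683, 634, 747 and 817 in CTCF-depleted replicates 1 to 5, against 652, 637, 600.1, 596 and 670.3 in wild-type replicates 1 to 5 on probe set 1422675_at. Depleted replicates 2, 4 and 5 lay above all wild-type arrays and replicates 1 and 3 within their range. Its log2 fold change was 0.16 ± 0.071 (SE; limma, adjusted p = 0.178), and that of probe set 1422676_at was -0.072 ± 0.077 at 313 ± 21.3 in depleted and 329.8 ± 30.4 in wild-type oocytes (SD; adjusted p = 0.623). The third Smarce1 probe set, 1430822_at, was above background on no array.

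Smarcc1, or BAF155, a scaffold of the complex, was measured on 4 probe sets, all of them under a mean signal of 100. Probe set 1423416_at had 87.6 ± 21.2 in depleted and 82.7 ± 10.2 in wild-type oocytes (SD), 1423417_at had 33.4 ± 7.81 in depleted and 39.4 ± 4.99 in wild-type oocytes, and 1455246_at had 17.3 ± 4.91 in depleted and 14.6 ± 3.51 in wild-type oocytes. Their log2 fold changes were 0.056 ± 0.15, -0.24 ± 0.16 and 0.19 ± 0.21 (SE; limma, adjusted p = 0.863, 0.377 and 0.627), with both signs and 95% intervals reaching from -0.57 to 0.64. The fourth, 1459824_at, was above background on no array. Smarcd1, or BAF60A, which links the complex to transcription factors, was not reliably measured: probe set 1448913_at was above background on 2 of 5 depleted and 1 of 5 wild-type arrays, and 1420240_at on 0 of 5 depleted and 1 of 5 wild-type arrays. The log2 fold change of 1448913_at, 0.48 ± 0.41, therefore says little (adjusted p = 0.516, 95% interval -0.38 to 1.34).

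Arid1a, or BAF250A, the DNA-binding subunit that defines the canonical form of the complex, was the member nearest to a rise. On probe set 1448709_at it read 1209, 1072, 1308, 1457 and 1404 in CTCF-depleted replicates 1 to 5, against 1141, 1115, 1110.0, 1064 and 1222 in wild-type replicates 1 to 5. Depleted replicates 3, 4 and 5 lay above every wild-type array, replicate 1 inside their range and replicate 2 near their lower end. The log2 fold change was 0.18 ± 0.073 (SE; limma, adjusted p = 0.117), and its 95% interval of 0.03 to 0.34 is that of a single test. Probe set 1417440_at read 1357, 1309.7, 1398, 1477 and 1441 in CTCF-depleted replicates 1 to 5, against 1221, 1247, 1348, 1302 and 1374 in wild-type replicates 1 to 5, with 4 of 5 depleted arrays above 4 of 5 wild-type arrays. Its log2 fold change was 0.10 ± 0.051 (adjusted p = 0.209). Probe set 1448709_at passed when depleted replicate 2 was left out (0.25, adjusted p = 0.0120), when arrays were centred on their medians (0.27, adjusted p = 0.0405) and with array weights (0.22, adjusted p = 0.0347). Over all tested probe sets 12.3%, 12.1% and 13.4% were called in these fits. Median centring also moved the median of all tested probe sets, from -0.021 to 0.065. In the other settings run on single probe sets, 1448709_at stayed uncalled.

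Smarca5, or SNF2H, the ISWI motor, was not called on any of its probe sets. Probe set 1424206_at read 1487, 1328, 1579.5, 1598 and 1609 in CTCF-depleted replicates 1 to 5, against 1544, 1585, 1445, 1454 and 1412 in wild-type replicates 1 to 5. The lowest and the highest array were both depleted, replicates 2 and 5. Its log2 fold change was 0.029 ± 0.058 (SE; limma, adjusted p = 0.813; 95% interval -0.093 to 0.15). Probe set 1424207_at had 639.8 ± 35.4 in depleted and 627 ± 46.0 in wild-type oocytes (SD) and a log2 fold change of 0.03 ± 0.063 (adjusted p = 0.825), and 1424205_at had 323 ± 31.8 in depleted and 361 ± 53.0 in wild-type oocytes and -0.15 ± 0.098 (adjusted p = 0.37). The fourth, 1440048_at, was above background on no array.

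The CHD members were dim. Chd3, a motor of the NuRD repressor complex, read 74.0, 51.0, 55.9, 42.6 and 51.5 in CTCF-depleted replicates 1 to 5, against 73.5, 63.6, 69.7, 58.9 and 63.4 in wild-type replicates 1 to 5 on its single probe set. Depleted replicate 1 was the highest array of all and the other 4 depleted arrays lay under every wild-type array. The log2 fold change was -0.27 ± 0.13 (SE; limma, adjusted p = 0.219), and without depleted replicate 1 it was -0.38 (adjusted p = 0.0521). Chd1, a remodeler of transcribed genes that binds methylated histone tails, had on its brightest probe set, 1431166_at, 37.3 ± 3.85 in depleted and 37.9 ± 3.66 in wild-type oocytes (SD) and a log2 fold change of -0.022 ± 0.12 (adjusted p = 0.94). On 1457473_at it was -0.40 ± 0.21 (adjusted p = 0.243) at 15.8 to 34.2 in depleted and 26.3 to 45.0 in wild-type oocytes. Probe sets 1420990_at and 1450077_at lay near background, above it on 4 and 3 of 5 depleted and on 5 and 4 of 5 wild-type arrays, with log2 fold changes of -0.55 ± 0.34 and -0.26 ± 0.23 (adjusted p = 0.344 and 0.541). Without depleted replicate 1, which read 2.22 against 8.33 to 15.6 on the other depleted arrays, the value of 1420990_at was -0.20 (adjusted p = 0.685).

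**Figure D2:**
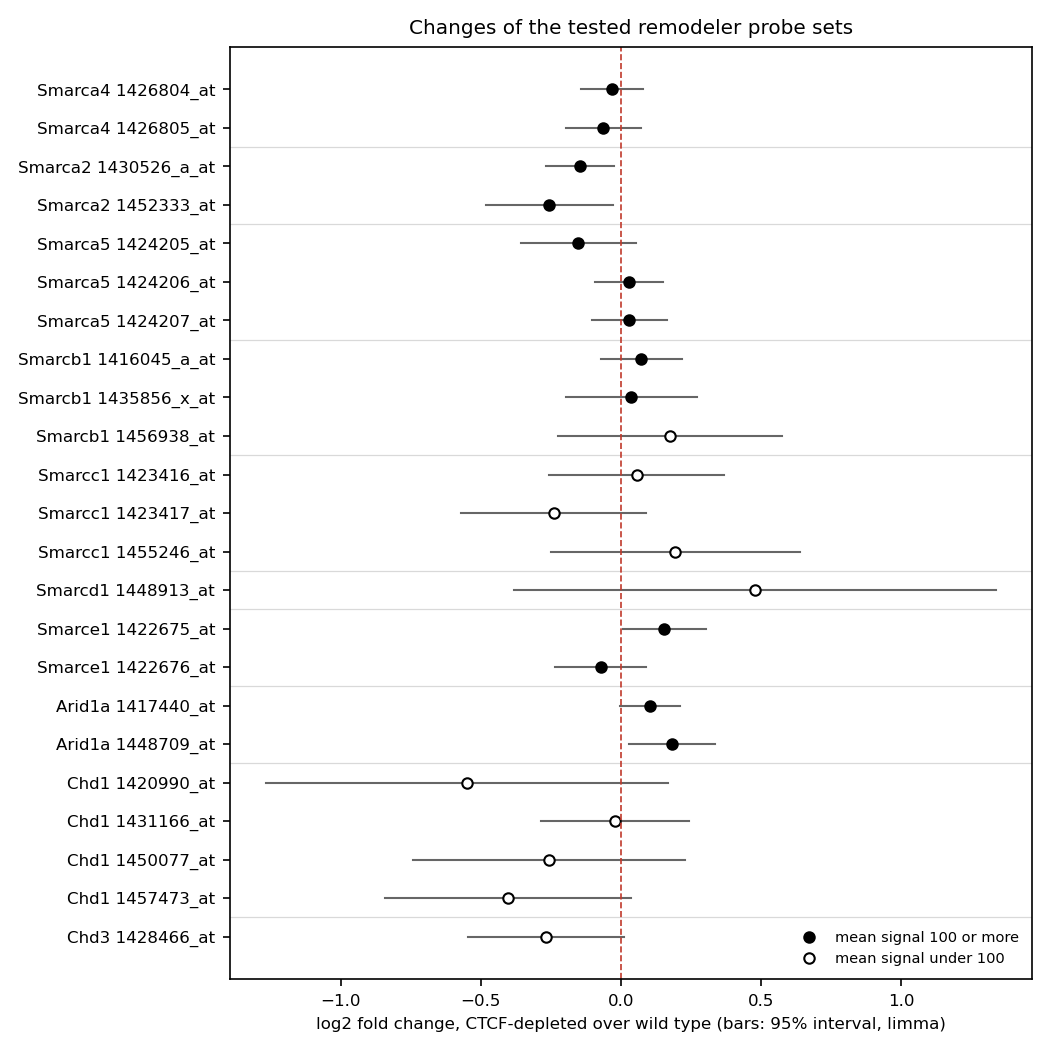
Log2 fold change, CTCF-depleted over wild type, of the 23 tested probe sets with 95% intervals from limma (not adjusted for the number of tests); filled circles have a mean signal of at least 100. The intervals of filled circles stay between -0.48 and 0.34, and those of dim probe sets are wider.

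How firmly a change can be bounded depended on brightness. For the 13 member probe sets with a mean signal of at least 100, which cover 6 of the genes, all 95% intervals lay between 0.716-fold and 1.26-fold. Over all tested probe sets of that brightness 19.1% were called. Members of both signs were about equally many, 11 positive and 12 negative, and the median log2 fold change was -0.022, against -0.021 over all tested probe sets. The median absolute log2 fold change was 0.15, against 0.16 over all. These counts cover the probe sets that passed the filter on dim signals, which leaves out 4 of the 27.

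**Figure D3:**
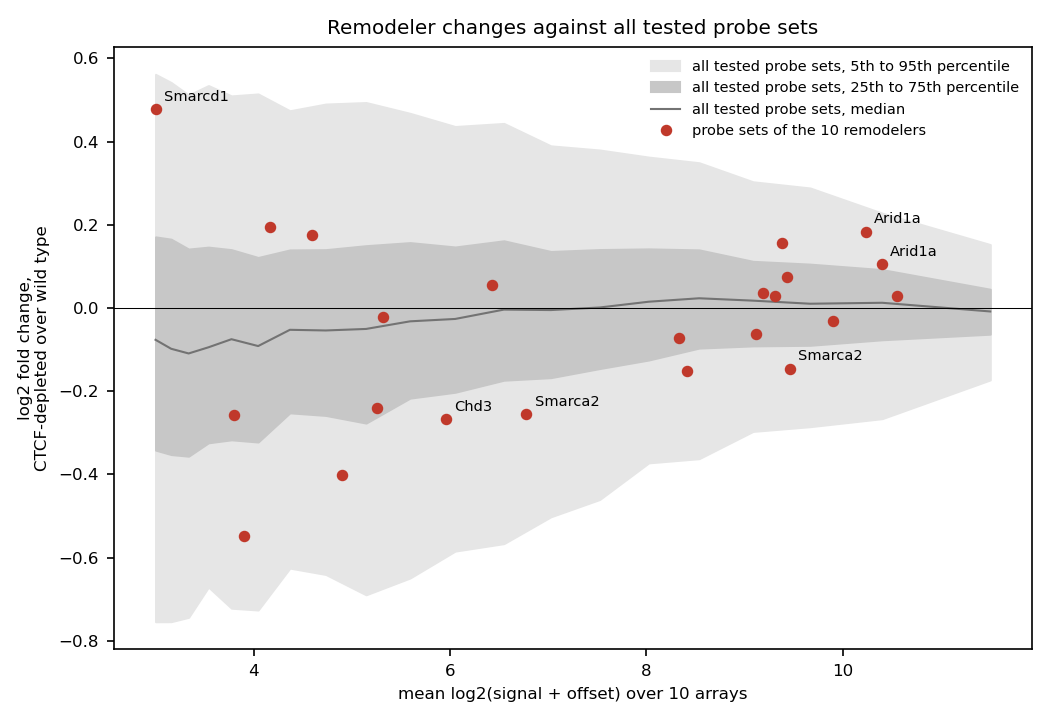
Log2 fold change, CTCF-depleted over wild type, against mean log2 signal for the 23 tested probe sets of the 10 genes (red), over the spread of all 27022 tested probe sets (grey bands, percentiles in 20 bins of signal). All red points lie within the 5th to 95th percentile band, with Arid1a on the upper and Smarca2 on the lower side.

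Probe sets of 1 gene can report different ends or isoforms, so the change of each other probe set was tested against that of the gene's brightest, in limma over all 9797 such pairs on the array. The 10 genes gave 13 pairs in 8 genes, and 0 were called, as against 0.316% of all pairs. At an unadjusted p under 0.05 there was 1, in Smarce1, where probe set 1422676_at fell short of 1422675_at by a log2 difference of -0.23 ± 0.094 (SE; adjusted p = 0.380). The share of all pairs at that level was not computed. The next was Smarcc1 1423417_at against 1423416_at, at -0.30 ± 0.14 (adjusted p = 0.451). The changes of the paired probe sets had opposite signs in 3 of the 13 pairs.

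The genes outside the list whose log2 signals followed Smarca2 1430526_a_at, the member of lowest adjusted p, most closely over the 10 arrays were P3h1 (r = 0.957), Ensa (r = 0.949), Sik2 (r = 0.946), Cyfip2 (r = 0.942) and Rpl22 (r = 0.933), by Pearson's r, given as a description. All 5 averaged lower signals in depleted oocytes, and the likeness includes that difference between the groups. Of them Ensa, which acts on phosphatase control at M phase, and Cyfip2, an actin regulator, were called lower, at log2 fold changes of -0.36 and -0.49 (limma, adjusted p = 0.00926 and 0.00136).

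Other subunits of the same complexes were called, both directions together, at a share near that of all genes. Each gene was taken by its brightest tested probe set, for which 16.4% of all 13811 genes were called, 7.26% higher and 9.12% lower. Of 39 tested genes in the SWI/SNF, ISWI and CHD lists, 6 rose and 2 fell, or 20.5%, with a median log2 fold change of 0.034 against -0.017 over all genes. By list these were 4 of 20 SWI/SNF subunits, 3 of 12 ISWI subunits and partners, and 1 of 7 CHD proteins. Rises outnumbered falls among them, where over all genes falls outnumbered rises, and this difference in direction was not tested.

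Dpf3, a BAF subunit with paired PHD fingers that read histone marks, had the lowest adjusted p of them. It read 674, 692, 592, 617 and 640.2 in CTCF-depleted replicates 1 to 5, against 996, 857, 830.2, 813 and 889.9 in wild-type replicates 1 to 5. All depleted arrays lay under all wild-type arrays. The log2 fold change was -0.45 ± 0.065 (SE; limma, adjusted p = 0.000165), a fall to 0.734 of the wild-type level, and the dimmer probe set 1441659_at fell by 0.74 (adjusted p = 0.0178). Dpf2, its more widely expressed relative, had a log2 fold change of -0.089 ± 0.077 (adjusted p = 0.527).

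Other SWI/SNF subunits that passed all rose. Brd7, a bromodomain subunit of the PBAF form, read 542, 574, 553, 548 and 585 in CTCF-depleted replicates 1 to 5, against 459, 496, 467, 472 and 474 in wild-type replicates 1 to 5, again without overlap. Its log2 fold change was 0.24 ± 0.053 (SE; limma, adjusted p = 0.00584). Bcl7b and Bcl7c, small accessory subunits, had 0.27 ± 0.07 and 0.16 ± 0.045 (adjusted p = 0.0144 and 0.0283), and in both the groups overlapped through depleted replicate 1. The Bcl7c call was lost with any 1 of 5 of the arrays left out, and the other 3 Bcl7c probe sets gave values from -0.10 to 0.054. The partners of Brd7 in PBAF were not called: Arid2 had 0.067, Pbrm1 -0.037 and Phf10 0.18 (adjusted p = 0.43, 0.858 and 0.11). For Phf10 the groups barely separated, with the lowest depleted array at 259.5 and the highest wild-type array at 259.3. Over all tested probe sets 11.1% separated. Arid1b, the relative of Arid1a, had 0.052 (adjusted p = 0.694), and Brd9, of the non-canonical form, 0.06 (adjusted p = 0.629).

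Among the regulatory partners of ISWI motors, Baz1a, also called ACF1, which pairs with Smarca5 in nucleosome spacing, had 713 ± 22.1 in depleted and 617 ± 14.996 in wild-type oocytes (SD, n = 5 each). Every depleted array exceeded every wild-type array. Its log2 fold change was 0.21 ± 0.05 (SE; limma, adjusted p = 0.0109), and its other probe set gave 0.19 (adjusted p = 0.0945). Bptf, the large subunit of NURF, had 2645 ± 109 in depleted and 3024 ± 128 in wild-type oocytes, also without overlap, and -0.19 ± 0.044 (adjusted p = 0.00704). Its other 3 probe sets gave -0.16, -0.14 and -0.090, of which the first passed (adjusted p = 0.0376), but with arrays centred on their medians the value was -0.11 (adjusted p = 0.336). Cecr2, a bromodomain partner of ISWI motors, had 0.33 ± 0.086 (adjusted p = 0.0154) with overlapping groups. Its other probe set gave -0.24 (adjusted p = 0.0537) without overlap, at 115 to 132 in depleted and 139 to 155 in wild-type oocytes. The difference between the 2 probe sets did not pass (adjusted p = 0.0708), so the direction for Cecr2 depends on the probe set. Smarca1, the other ISWI motor, lay near background, above it on 1 of 5 depleted and 3 of 5 wild-type arrays.

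Of the CHD proteins only Chd7, a remodeler of enhancers, was called. It read 1544, 1518, 1594, 1443 and 1583 in CTCF-depleted replicates 1 to 5, against 1372, 1169, 1221, 1224 and 1383 in wild-type replicates 1 to 5, without overlap, at a log2 fold change of 0.27 ± 0.055 (SE; limma, adjusted p = 0.00322), and its other probe set gave 0.26 (adjusted p = 0.0438). Chd8, whose product is known to bind CTCF, had 1002 ± 36.7 in depleted and 975 ± 24.6 in wild-type oocytes (SD, n = 5 each) and a log2 fold change of 0.038 ± 0.047 (SE; adjusted p = 0.684). Chd4, another NuRD motor, had -0.018 ± 0.062 (adjusted p = 0.898).

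**Figure D4:**
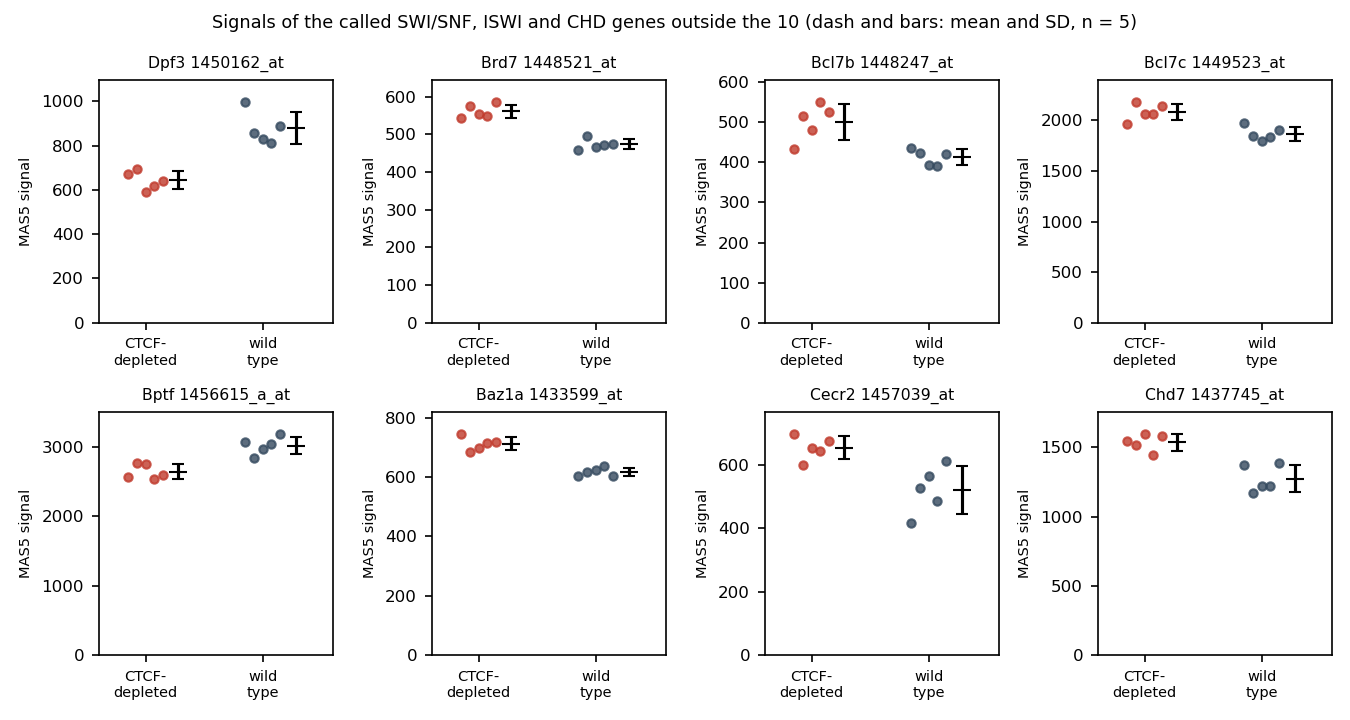
MAS5 signals per array (linear axis from 0) of the 8 called SWI/SNF, ISWI and CHD genes outside the 10, CTCF-depleted arrays left and wild-type arrays right, with mean and SD (n = 5). Dpf3 and Bptf are lower in depleted oocytes, and Brd7, Bcl7b, Bcl7c, Baz1a, Cecr2 and Chd7 are higher. Each gene is shown by its brightest probe set, and the other Cecr2 probe set, uncalled, had the opposite sign.

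Of 19 tested genes of other SNF2-family motors and their partners, 1 rose and 2 fell, or 15.8%, near the 16.4% of all genes. Ruvbl1 and Ruvbl2, which form a joint ring in the INO80 and SRCAP complexes, were called in opposite directions: Ruvbl1 had 119 ± 15.4 in depleted and 84.6 ± 6.93 in wild-type oocytes (SD) and a log2 fold change of 0.47 ± 0.10, and Ruvbl2 had 1376 ± 101 in depleted and 1557 ± 64.1 in wild-type oocytes and -0.18 ± 0.054 (SE; limma, adjusted p = 0.00559 and 0.037). The call of Ruvbl2 was lost with any 1 of 8 arrays left out. Rad54l, a motor of homologous recombination, had -0.25 ± 0.058 (adjusted p = 0.0089), and its other probe sets gave -0.16 and -0.44 (adjusted p = 0.506 and 0.00494). The one that passed, 1423124_x_at, carries the suffix of probes that may also bind other transcripts. The call on the brightest Rad54l probe set was lost with arrays centred on their medians. Atrx, a motor of heterochromatin, and Hells, which helps DNA methylation, had -0.063 and -0.0013 and were not called (adjusted p = 0.436 and 0.992). Centred on array medians, 3 genes of this list rose and 0 fell, where 15.4% of all genes were called.

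**Figure D5:**
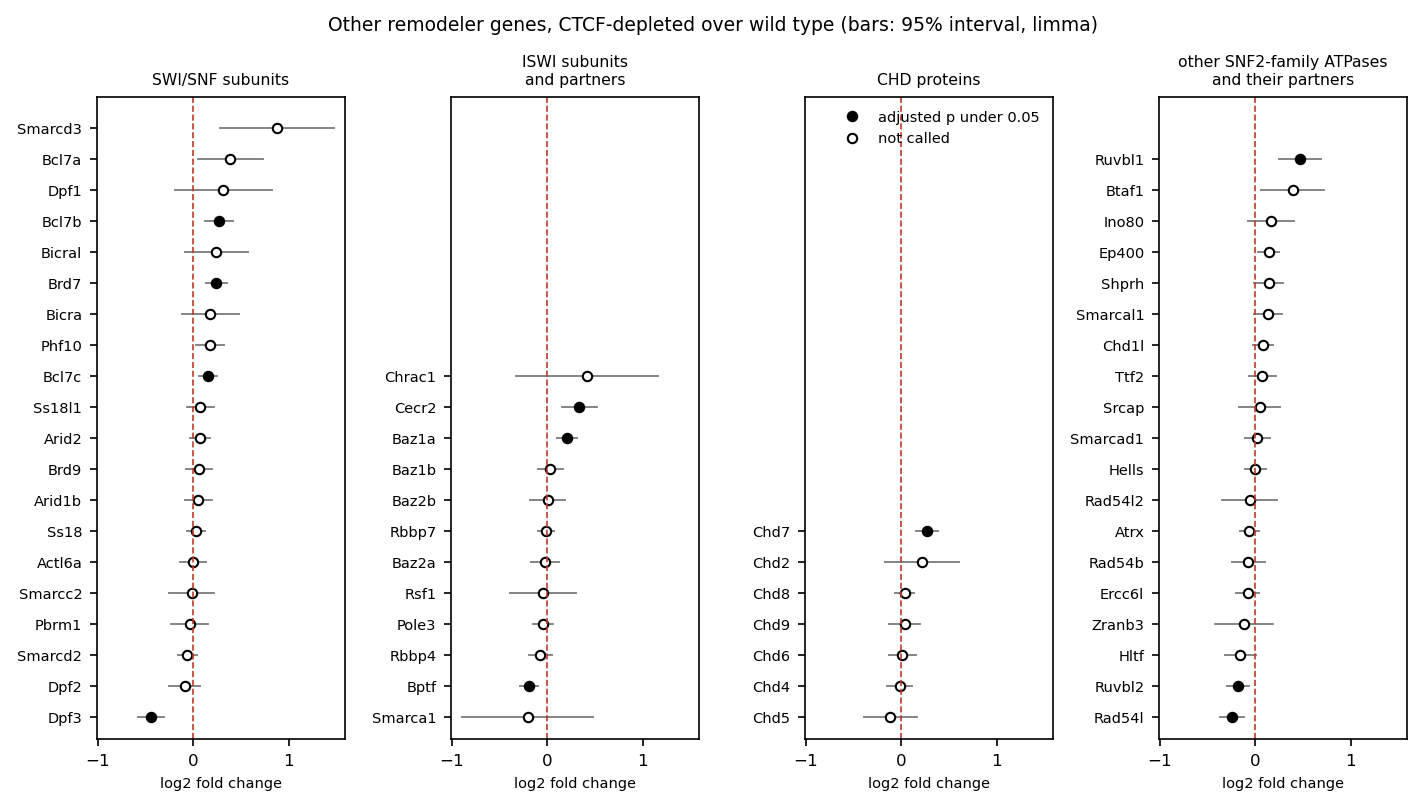
Log2 fold change, CTCF-depleted over wild type, with 95% limma intervals for the tested genes of the 4 remodeler lists outside the 10, each by its brightest probe set; filled circles passed at an adjusted p under 0.05. The filled circles lie at small values of both signs, from -0.45 for Dpf3 to 0.47 for Ruvbl1.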

How the data were processed

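Oocyte total RNA was biotin-labelled for expression arrays of 1 colour, per the labels' protocols. What the authors deposited is an intensity on a linear scale for each probe set, computed with MAS5 per the submitters' processing notes; version and settings are not given in the sources used here. The mean signal, trimmed by 2% at both ends, was 150.001 or nearly so on all 10 arrays, so the scaling assumes equal mean signal. The 64 control probe sets were left out. To each signal 2.47 was added (the 25th percentile of the data) before log2, so fold changes of dim genes are understated. A filter then dropped the 40% of probe sets with the lowest mean. Groups, from sample titles, were compared by limma 3.58.1 under R 4.3.3, using lmFit and a trended eBayes, Benjamini-Hochberg adjusted over all 27022 tested probe sets (or 13811 genes, or 9797 pairs, where said), with calls at an adjusted p under 0.05. Exact permutation tests are two-sided. The number of arrays limits the precision.

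The members and gene lists were chosen with earlier results of these data known. Named genes were all member probe sets, Ctcf, the called genes of each list and the 5 genes most like the member of lowest adjusted p; uncalled relatives and the members singled out under other settings were named after their values were seen. Gene symbols are the platform annotation's, 34945 probe sets with 1 symbol, 932 with several and 9160 with none. Alternatives were other offsets, filters, scalings, variance models, array weights, a replicate block, the ratio of 3-prime to 5-prime control signal as a covariate, each array left out, and averages of all probe sets per gene, an alternative that was chosen for the members after seeing the data. Simulated data with known changes were used to test the code.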

Additional observations from a re-analysis of the deposited data

Results flagged for a closer look

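Of 80 groups of 5 arrays examined, covering the probe sets of the 10 genes, of Ctcf and of the called remodelers, 3 held an array far from the other 4, by the gap to its nearest neighbour against the whole range of log2 signals with the offset; chance alone gives about 1 in 20. All were in wild-type oocytes and on dim probe sets: Smarcc1 1423417_at read 31.0 in wild-type replicate 3, where the others read 40 to 44.3. Chd1 1420990_at read 8.37 in wild-type replicate 5, where the others read 16.7 to 20.6. Smarce1 1430822_at read 2.96 in wild-type replicate 4, where the others read 0.284 to 0.866, all under background. On linear signals 5 groups stood out, Smarce1 1430822_at again and 4 others in depleted oocytes: Ctcf on both probe sets in replicate 5 (61.1, the others 7.07 to 14.2, and 95.8, the others 16.7 to 29.3), Smarcd1 1420240_at in replicate 4 (2.23, the others 0.657 to 1.08) and Ruvbl2 in replicate 2 (1549, the others 1299 to 1368).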

How the results depend on the processing

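On single probe sets, no member was called with other offsets, filters or quantile normalization, without a trend, with the covariate or with a replicate block, where 0 were higher and 0 lower. The share of all tested probe sets called in these settings ran from 6.26% without a filter to 18.9% with a filter at the 60th percentile. Counts of members called higher became 1 when arrays were centred on their medians and 1 with array weights, in both cases Arid1a. They lay between 0 and 1 over the fits that omit an array. Over all tested probe sets 12.1%, 13.4% and 10.2% to 12.3% were called in these fits, in that order. The count of members called lower became 1 on averages of all probe sets per gene (Smarca2), chosen after seeing the data, where 16.2% of genes were called. These averages kept that call with offsets of 1 and 16, quantile normalization, no trend, array weights, the covariate and the replicate block (adjusted p 0.0223 to 0.0497). In those settings 13.3% to 17.4% of all genes were called. Median centring moved the median of all tested probe sets to 0.065, and with it Smarca4 to 0.055 and 0.023, Smarce1 1422676_at to 0.014 and Chd1 1431166_at to 0.064, against 0.036 for the last under quantile normalization. The mean over probe sets gave Smarca5 -0.031. All these turned sign while uncalled. With single arrays left out, uncalled values that changed sign ran from -0.033 to 0.17 for Smarcc1 1423416_at, -0.032 to 0.15 for Smarcb1 1435856_x_at, -0.014 to 0.059 for Smarca5 1424207_at and -0.063 to 0.032 for Chd1 1431166_at. Without wild-type replicate 2, the array with the most granulosa signal, 0 member probe sets were called, as with all arrays. Over all tested probe sets 10.6% were then called, against 12.6% with all arrays.

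Of the other SWI/SNF, ISWI and CHD genes, the 6 higher became 9 under median centring, 8 under quantile normalization, 4 with the covariate, which lost Bcl7b and Bcl7c, and 3 without a trend, which lost Bcl7b, Bcl7c and Cecr2. The 2 lower became 1 without a trend, which lost Bptf, and 1 under median centring and on the mean over probe sets. Over all genes 16.4% were called in the main fit and 15.4% under median centring. The share was 16.4% under quantile normalization, 13.9% with the covariate, 12.3% without a trend and 16.2% on the mean over probe sets. Of the other SNF2-family genes, 3 were higher under median centring, 2 under quantile normalization, 3 with the replicate block and 2 with the covariate; 1 was lower without the filter, 0 under median centring and 1 without a trend. With single arrays left out 1 to 2 were higher and 1 to 2 lower. The share of all genes called was 17% with the replicate block, 10.3% without the filter and 13.4% to 16% with single arrays left out. The causes were not tested. Dpf3, Brd7, Baz1a, Chd7 and Ruvbl1 passed under all settings run for these probe sets, each array left out included. Same-numbered arrays of the groups had correlations of 0.0024 to 0.051 in their deviations from the group means. These were highest with the own number for depleted replicates 4 and 5 but not 1, 2 and 3, with replicate 3 close (0.0489 against 0.0491). Such small correlations cannot decide whether the replicate numbers pair the arrays. The log2 ratio of Smarca2 to Smarca4 differed between depleted and wild-type oocytes by -0.15 to -0.071 with arrays left out and by -0.11 with the replicate block (exact permutation within pairs, p = 0.375). Dim signals limit Smarcd1, Smarcc1, Chd1 and Chd3 most.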

Other observations

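Some remodeler genes were called on a probe set other than their brightest, and these were picked after their values were seen. Ep400, the motor of the TIP60 complex, had log2 fold changes of 0.18 and 0.33 on probe sets 1426860_at and 1437020_at (limma, adjusted p = 0.0212 and 0.0319), while the brightest gave 0.14 (adjusted p = 0.0829) and the other 2 gave 0.079 and -0.20. Ino80, the motor of the INO80 complex, had 0.37 on 1448965_at (adjusted p = 0.0255) and 0.16 on its brightest probe set (adjusted p = 0.408). Smarcal1, which restarts stalled replication forks, had -0.38 on 1455139_at (adjusted p = 0.0283), at a mean signal of 48.1 in depleted and 63.2 in wild-type oocytes, and 0.13 on its brightest (adjusted p = 0.238); the difference between the 2 did not pass (adjusted p = 0.177).

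Smarcd3, a relative of Smarcd1 known from heart muscle, lay above background on 5 of 5 depleted and 1 of 5 wild-type arrays, with a log2 fold change of 0.88 ± 0.28 (SE) that just missed the threshold (limma, adjusted p = 0.0504). It read 12.9, 21.9, 12.0, 17.2 and 7.49 in CTCF-depleted replicates 1 to 5, against 5.98, 3.69, 5.28, 6.21 and 11.95 in wild-type replicates 1 to 5, with depleted replicate 5 inside the wild-type range. All these signals were dim. The background level was 4.75 for depleted replicate 5 and 6.15 to 10.2 on the wild-type arrays, so the counts above background depend on unequal levels.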
